A study of Mus musculus with 10 samples.

Results

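The immediate early and activation response was followed through 10 genes in the colon of mice with colitis: Fos, Fosb, Jun, Batf, Atf3, Egr1, Egr2, Egr3, Nr4a1 and Gem. They are 10 of the 56691 genes in the count table, and all 10 were among the 16545 genes with enough counts to be tested. The group was selected on values measured in these same mice, in which Egr2, Gem and Batf stood lower after ceAF (chick early amniotic fluid), and the question was how the other early response genes stood in the same comparison. The values of the 10 genes between the groups are therefore given as levels and differences without a test.

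The colon of 10 male C57BL/6 mice, 8 weeks old, was sequenced for RNA. All mice had received 3% DSS (dextran sulfate sodium, which injures the colonic epithelium) in their drinking water for 7 days. The DSS group (DSS-1 to DSS-5) had no ceAF, and the ceAF group (ceAF-1 to ceAF-5) was then given 15 mL/kg ceAF by gavage for 10 days. Both groups therefore carry DSS injury, and colon without DSS was not analysed here. Total counts ran from 16275884 to 19901549 in DSS and from 14676471 to 18811795 in ceAF.

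Immediate early genes are transcribed within minutes of a stimulus from factors already present in the cell, so that growth factors, stress or antigen receptor signals switch them on before any new protein is made. Kinases of the MAPK family act through serum response factor and CREB at their promoters, and in lymphocytes calcium and NFAT add to this for genes such as Egr2, Egr3 and Nr4a1. In the colon such genes are used by epithelial cells during injury and renewal and by T cells, B cells and myeloid cells when these are activated.

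The tissue was checked with defining markers. The 10 colon epithelium markers were counted in all mice, with Car1 (a carbonic anhydrase of surface colonocytes) the most abundant at a mean of 2778 FPKM (fragments scaled by exonic length and library total), though the tissue pieces differed widely in it, from 115 CPM in DSS-5 to 11920 CPM in ceAF-1. The sum of the 10 lay between 14650 CPM in DSS-5 and 29340 CPM in ceAF-1, where CPM is the count scaled to a common library size by TMM. Libraries also stood apart from their own group. ceAF-1 lay at 93.6 on the first principal component, which held 30.8% of the variance, while the other 9 mice lay between −45.5 and 16.0. On the second component, with 19.4% of the variance, DSS-1 lay at 60.3 and DSS-5 at −45.8. The share of counts on mitochondrial genes was 5.34%, 5.34%, 5.45%, 6.54% and 5.06% in DSS-1 to DSS-5 and 9.66%, 5.64%, 4.53%, 7.24% and 9.74% in ceAF-1 to ceAF-5, so that ceAF-1, ceAF-4 and ceAF-5 stood above all DSS mice.

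Across the 16545 genes tested, edgeR called 0 genes (0.0%) at an adjusted p under 0.05, with the smallest adjusted p at 0.656, and 1146 genes (6.93%) at an unadjusted p under 0.05, while DESeq2 called 31 at an adjusted p under 0.05. Of the 1146, 607 (3.67% of the genes tested) were lower in ceAF and 539 (3.26%) were higher. Without DSS-1 the 1146 became 712, and without ceAF-1 they became 1872. Without DSS-5 edgeR called 3 genes instead of 0. These p-values measure the spread between samples that the labels number as separate mice.

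Of the 10 genes, 9 had a log2 fold change below 0 in ceAF against DSS, where 48.6% of all genes tested did. A log2 fold change of −1 or lower was found for 4 of them, Egr2, Batf, Gem and Egr3, where 1.99% of all genes had one. For 2, Batf and Gem, every ceAF mouse was below every DSS mouse, which held for 77 genes or 0.465% of those tested. Since the 10 were chosen on this contrast, nothing is read from these shares. Their median log2 fold change was −0.96, and that of all genes tested was 0.0076.

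**Figure D1:**
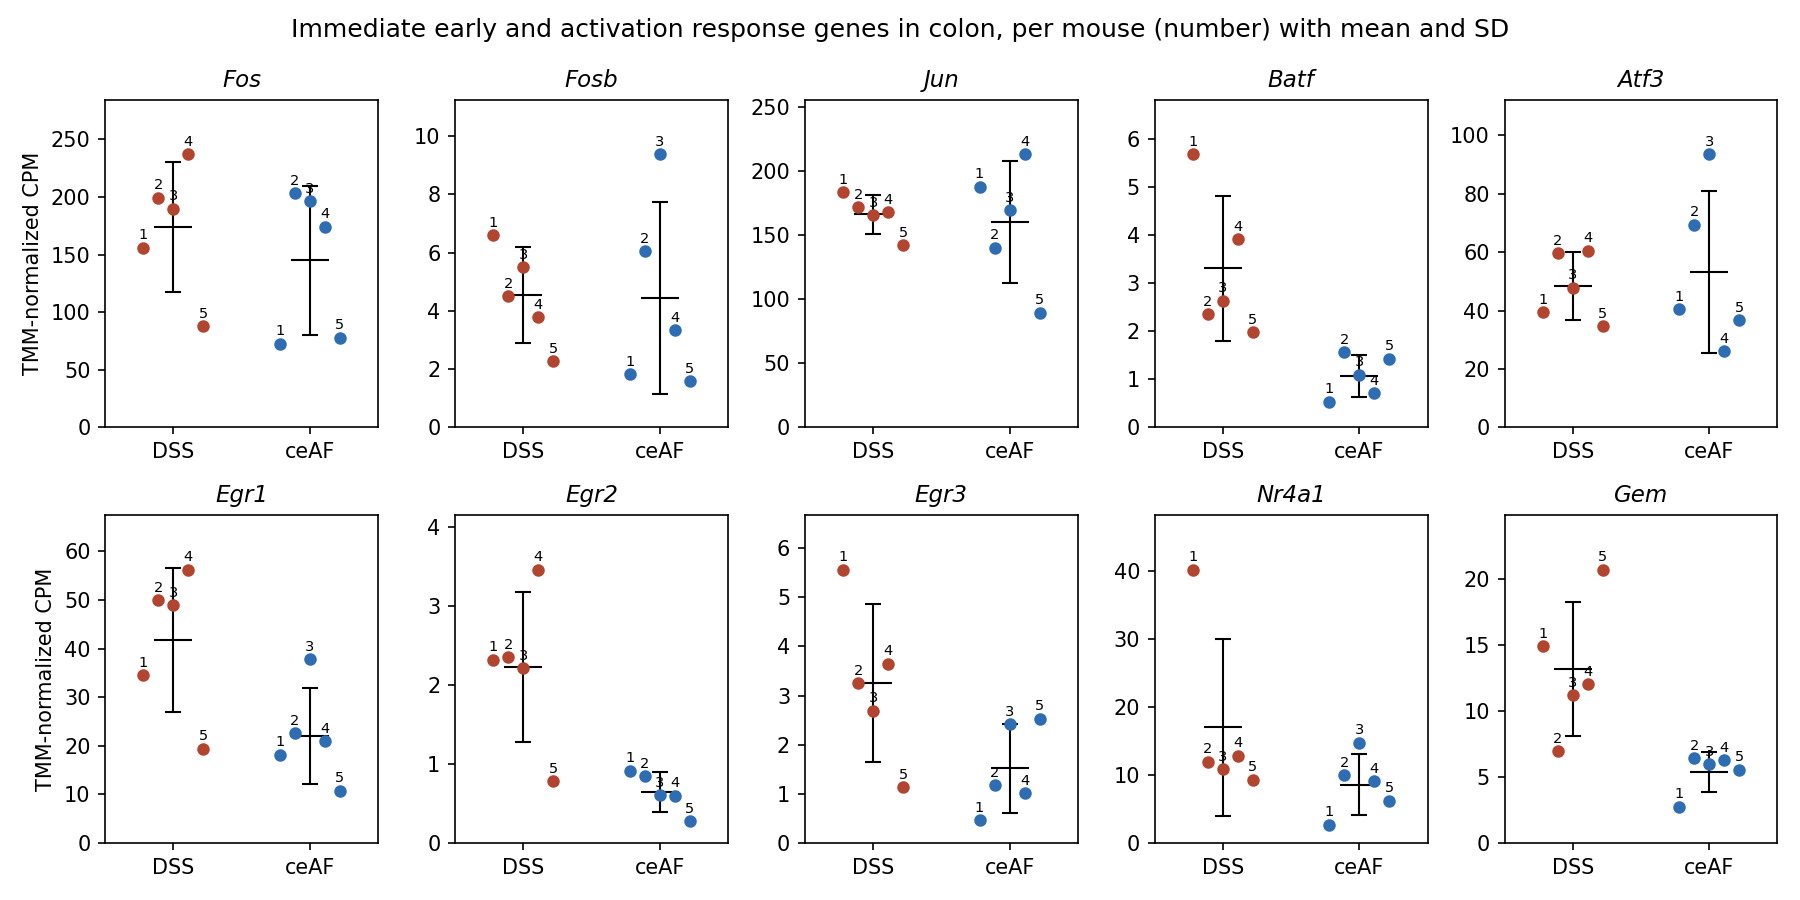
Level of each of the 10 genes in every mouse, as TMM-normalized CPM on the vertical axis from 0, with DSS mice in red and ceAF mice in blue and the mouse number above each point. The horizontal bar is the group mean and the whiskers are 1 SD (n = 5). Batf and Gem show no overlap between the groups, while Fos, Fosb, Jun and Atf3 overlap over most of their range.

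Levels can be compared between genes only per exonic length, and FPKM gives that scale. Over all 10 mice Fos averaged 67.8 ± 24.7 FPKM (SD, n = 10) and Jun 51.1 ± 10.5, followed by Atf3 at 23.4 ± 8.87. Egr1 stood at 7.09 ± 3.48, Gem at 4.44 ± 2.64, Nr4a1 at 3.68 ± 3.04 and Batf at 1.57 ± 1.15. Fosb at 0.719 ± 0.390, Egr3 at 0.546 ± 0.359 and Egr2 at 0.421 ± 0.308 were the least abundant. Neighbours in this order differed by less than the larger of their SDs, except Jun from Atf3 and Atf3 from Egr1. The 3 most abundant genes differed little between the groups, as did Fosb, and the genes with the larger differences were among the less abundant ones.

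The first 5 genes encode leucine zipper (bZIP) proteins. Fos (ENSMUSG00000021250, chromosome 12, 85520664 to 85524047 as deposited) encodes c-Fos, which pairs with a Jun protein to form the transcription factor AP-1. It stood at 156, 199, 190.0, 237 and 87.8 CPM in DSS-1 to DSS-5 and at 72.7, 204, 197, 174 and 77.9 CPM in ceAF-1 to ceAF-5. DSS-5, ceAF-1 and ceAF-5 were low and the other 7 mice were at 156 CPM or more, so that each group held both kinds and the groups overlapped nearly throughout. On the log2 scale ceAF against DSS gave −0.26, with 0.34 as its standard error (SE), and −0.096 without ceAF-1 or −0.42 without DSS-5.

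Fosb (ENSMUSG00000003545, chromosome 7, 19036621 to 19043976) encodes a Fos paralog that takes the same place in AP-1. Its values were 6.61, 4.50, 5.51, 3.78 and 2.28 CPM in DSS-1 to DSS-5 and 1.83, 6.05, 9.38, 3.34 and 1.59 CPM in ceAF-1 to ceAF-5. The same 3 mice as for Fos were lowest, and the highest was a ceAF mouse, ceAF-3. The log2 fold change was −0.03 (SE 0.48) and 0.19 without ceAF-5, the spread within ceAF being wider than within DSS.

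Jun (ENSMUSG00000052684, chromosome 4, 94937271 to 94940459) encodes c-Jun, which binds DNA with Fos proteins, with other bZIP proteins or as a pair of its own. It was at 184, 172, 166, 168 and 142 CPM in the DSS mice and at 188, 141, 169.9, 214 and 89.6 CPM in the ceAF mice, each in the order of their numbers. Jun was the steadiest of the 10 within DSS, with an SD of 0.14 on the log2 scale, and ceAF-5 alone lay well below the other 9 mice. Between groups its log2 fold change was −0.05 (SE 0.20) and 0.10 without ceAF-5. An antisense gene, Junos, overlaps it by 689 bases in the deposited positions, so that reads from the pair cannot be told apart without strand, and its own total was 343 counts over all mice.

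Batf (ENSMUSG00000034266, chromosome 12, 85733443 to 85755861) encodes a small bZIP protein without an activation domain of its own, which works with Jun proteins and IRF4 in activated lymphocytes and is required for Th17 and follicular helper T cells. It was counted at 5.68, 2.35, 2.63, 3.91 and 1.98 CPM in DSS-1 to DSS-5 and at 0.534, 1.56, 1.10, 0.716 and 1.43 CPM in ceAF-1 to ceAF-5. The lowest DSS mouse, DSS-5, lay above the highest ceAF mouse, ceAF-2, by a narrow margin, and DSS-1 was the highest of all. The means were 3.31 ± 1.51 and 1.07 ± 0.443 CPM (SD, n = 5 each), a log2 fold change of −1.62 (SE 0.38). The counts behind these levels were 33 to 98 in DSS and 7 to 26 in ceAF.

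Atf3 (ENSMUSG00000026628, chromosome 1, 190902493 to 190950236) encodes a stress-induced factor that represses transcription as a homodimer. Its level was 39.6, 59.7, 47.9, 60.5 and 34.7 CPM in the DSS mice and 40.4, 69.5, 93.6, 26.1 and 36.8 CPM in the ceAF mice. It was the one gene of the 10 with a higher mean in ceAF, at 53.3 ± 27.7 against 48.5 ± 11.6 CPM (SD, n = 5 each), and its lowest and its highest mouse were both ceAF mice. The log2 fold change of 0.14 (SE 0.32) was −0.16 without ceAF-3.

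Egr1, Egr2 and Egr3 encode zinc finger proteins that bind the same GC-rich element. Egr1 (ENSMUSG00000038418, chromosome 18, 34992876 to 34998037) is the broadly used member and is induced in most cell types. It stood at 34.5, 49.9, 48.9, 56.2 and 19.4 CPM in DSS-1 to DSS-5 and at 18.2, 22.5, 37.8, 20.9 and 10.7 CPM in ceAF-1 to ceAF-5. All 5 ceAF mice were below the DSS median, but DSS-5 lay among the ceAF mice and ceAF-3 lay above DSS-1. Its log2 fold change was −0.92 (SE 0.34).

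Egr2 (ENSMUSG00000037868, chromosome 10, 67371305 to 67378018) is induced through the T cell receptor and, like Egr3, restrains T cell activation. The DSS mice had 2.32, 2.35, 2.21, 3.46 and 0.780 CPM and the ceAF mice 0.916, 0.846, 0.603, 0.597 and 0.275 CPM. DSS-5 alone of the DSS mice lay within the ceAF range, and the other 4 were well above the highest ceAF mouse. The log2 fold change was −1.79 (SE 0.41) and rested on 13 to 54 counts per DSS mouse and 5 to 13 per ceAF mouse, the fewest of the 10 genes.

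Egr3 (ENSMUSG00000033730, chromosome 14, 70314652 to 70320063) was at 5.56, 3.25, 2.69, 3.65 and 1.14 CPM in the DSS mice and at 0.458, 1.17, 2.41, 1.01 and 2.53 CPM in the ceAF mice. All ceAF mice were below the DSS median here too, with DSS-5 again among them, and ceAF-1 was the lowest. A log2 fold change of −1.08 (SE 0.49) resulted.

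Nr4a1 (ENSMUSG00000023034, chromosome 15, 101152150 to 101172676) encodes the orphan nuclear receptor Nur77, a rapid reporter of antigen receptor signaling. Its values were 40.2, 11.9, 10.8, 12.8 and 9.30 CPM in DSS-1 to DSS-5 and 2.67, 9.96, 14.7, 9.07 and 6.21 CPM in ceAF-1 to ceAF-5. DSS-1 stood far above all others, and of the ceAF mice ceAF-1, ceAF-4 and ceAF-5 lay below all DSS mice, while ceAF-3 lay above the other 4 DSS mice. The log2 fold change of −0.99 (SE 0.49) was −0.39 without DSS-1. A gene without a symbol overlaps Nr4a1 by 2740 bases on the same strand in the deposited positions. Its own total was 28 counts over all mice.

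Gem (ENSMUSG00000028214, chromosome 4, 11704457 to 11714752) encodes a small GTPase of the RGK family, which lowers voltage-gated calcium channel activity and is induced in activated T cells. It was at 14.9, 6.95, 11.2, 12.04 and 20.7 CPM in DSS-1 to DSS-5 and at 2.75, 6.44, 5.98, 6.26 and 5.55 CPM in ceAF-1 to ceAF-5. The groups did not overlap, though DSS-2 was close to 4 of the ceAF mice, and the highest mouse was DSS-5, which was the lowest DSS mouse for each of the other 9 genes. The means were 13.2 ± 5.09 and 5.40 ± 1.52 CPM (SD, n = 5 each), with a log2 fold change of −1.28 (SE 0.30).

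The order of the mice was thus shared in part. Ranked from 1 for the lowest to 10 for the highest mouse and averaged over the 10 genes, ceAF-5 had a mean rank of 2.3 and ceAF-1 of 2.9, against 8.2 for DSS-4 and 7.8 for DSS-1. ceAF-1 was the lowest mouse for 5 genes and ceAF-5 for 4. In DSS, DSS-5 had the lowest mean rank, 4.1, and in ceAF, ceAF-3 had the highest, 6.3. ceAF-4 followed ceAF-5 and ceAF-1 with a mean rank of 3.7, and these are the 3 mice with the highest share of mitochondrial counts. Among the DSS mice, however, DSS-4 had both the highest share (6.54%) and the highest mean rank, and DSS-5 the lowest of both (5.06%). The part of that share in the levels of the 10 genes was not tested. As the genes were chosen on the difference between the groups, only the order within a group describes the mice.

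To see whether the genes moved together apart from the treatment, each gene's log2 CPM was set against its group mean and the deviations of the 10 mice were correlated for all 45 pairs. The r was above 0 for 38 pairs, with a median of 0.384. An exact two-sided permutation of the mice within groups, over 14400 orders, gave 10 pairs at an unadjusted p under 0.05, each with a positive r, and 0 pairs after Benjamini-Hochberg adjustment over the 45. The closest pair was Fos and Egr1, with r = 0.849 (exact permutation p = 0.00181, adjusted p = 0.0813) and Spearman's coefficient = 0.782 (exact permutation p = 0.00479, adjusted p = 0.128) over the 10 mice. Leaving out the 2 mice farthest from the median of Fos gave r = 0.875.

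Among the 10 pairs at an unadjusted p under 0.05, Fos, Fosb, Egr1 and Atf3 were further linked by Fosb with Egr1 (r = 0.765, Spearman 0.564), Fos with Fosb (r = 0.808, Spearman 0.697) and Atf3 with Egr1 (r = 0.71, Spearman 0.806). Batf, Egr3 and Nr4a1 were linked by Batf with Egr3 (r = 0.797, Spearman 0.770), Batf with Nr4a1 (r = 0.730, Spearman 0.758) and Egr3 with Nr4a1 (r = 0.730, Spearman 0.588). Fosb with Nr4a1 (r = 0.759, Spearman 0.685, r = 0.783 without 2 mice) joined these 2 sets. Gem was in none of the 10 pairs, and its r of −0.53 with Egr2 was the lowest of all 45. Without the 2 mice farthest from the median of the first gene, Batf with Nr4a1 had an r of 0.384, Egr3 with Nr4a1 of 0.446 and Fosb with Egr1 of 0.519, and Egr1 with Egr2 went from 0.756 to −0.14, so that these pairs rested at least in part on those mice. The last of the 10 pairs, Jun with Egr2, had r = 0.607 and Spearman 0.297, with r = 0.573 without 2 mice. The adjusted exact permutation p of r was 0.154 or more for the pairs other than Fos with Egr1, over 10 mice, and the count of pairs with an adjusted p under 0.05 was 1 without DSS-1, 2 without ceAF-1 and 1 without ceAF-4.

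The genes most like Fos in these deviations, of 16345 compared over the 10 mice, were Bcl11b (r = 0.969), Gm17210 (r = 0.941), Wdr1 (r = 0.911), Fasl (r = 0.908) and Prf1 (r = 0.904). Those most like Batf were Rilpl1 (r = 0.955), Tbc1d8 (r = 0.952), E330020D12Rik (r = 0.95) and Plac9 (r = 0.95). With so many genes and 10 mice, high values arise by chance as well, so these are the top of a ranking and were not tested.

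Because whole colon was sequenced, fewer cells of a type and less RNA per cell cannot be told apart. Markers of immune cells were mostly lower in ceAF, by edgeR with 0 of them at an adjusted p under 0.05. All 9 T cell markers were lower in ceAF, 8 of them at an unadjusted p under 0.05 in edgeR, their median log2 fold change being −1.22 and Cd8a the most abundant at 4.75 FPKM. Their summed level was 107, 123, 113, 125 and 45.6 CPM in DSS-1 to DSS-5 and 43.9, 57.0, 49.7, 27.0 and 33.9 CPM in ceAF-1 to ceAF-5. DSS-5, the lowest DSS mouse for all of the 10 genes but Gem, also had the lowest T cell marker sum in DSS. It was likewise the lowest DSS mouse for the marker sums of macrophages, endothelium and colon epithelium. For those of B cells, neutrophils, smooth muscle and fibroblasts it was not.

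The 7 B cell markers were all lower in ceAF, 0 of them at an unadjusted p under 0.05, their median log2 fold change being −0.69 and Cd79a the most abundant at 9.26 FPKM. Their sum was 220.3, 38.1, 28.9, 33.1 and 38.1 CPM in DSS-1 to DSS-5 and 8.09, 39.6, 73.7, 11.8 and 109 CPM in ceAF-1 to ceAF-5, so that DSS-1 stood apart and the groups overlapped. Without DSS-1, 0 of the 7 were lower and the median was 0.61, while without ceAF-5 the median was −1.20. Of 6 neutrophil markers 5 could be tested, all lower in ceAF and 4 at an unadjusted p under 0.05, with a median log2 fold change of −3.94, or −1.07 without DSS-1. Their sum was 1485, 123, 278, 199.7 and 548 CPM in DSS-1 to DSS-5 and 21.0, 249, 184, 125 and 212 CPM in ceAF-1 to ceAF-5. Ly6g, the most abundant at 198 FPKM, made up most of this sum in all mice but DSS-1 and DSS-3, and it was the one tested marker of the list above an unadjusted p of 0.05. The 6 macrophage markers were all lower, 2 at an unadjusted p under 0.05, with a median of −0.49 (−0.33 without DSS-1 and −0.29 without ceAF-1) and C1qa the most abundant at 27.6 FPKM. Their sum was 160.2, 111, 118, 121 and 83.1 CPM in DSS and 37.3, 96.2, 116, 76.8 and 92.5 CPM in ceAF, in the order of the mice, with ceAF-1 the lowest of all.

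With all mice, the medians of the other tissue components were less negative than those of the immune cell lists, which was not tested. The order did not hold without ceAF-4, where the median was −0.59 for endothelium and −0.48 for macrophages. Nor did it hold without DSS-1, with 0.61 for B cells and −0.15 for endothelium. The same 2 medians were −0.30 and −0.38 with the replicate number as a block. They were 0.96 and 0.049 without DSS-1, DSS-5 and ceAF-1 together. The summed markers of smooth muscle were 2368, 2105, 1487, 1278 and 2709 CPM in the DSS mice and 1207, 2875, 1150.0, 1407 and 2282 CPM in the ceAF mice. All 6 were lower in ceAF with a median log2 fold change of −0.19, Actg2 being the most abundant at 204 FPKM. Fibroblast markers (5 of 5 lower, median −0.37, Dcn the most abundant at 18.8 FPKM) summed to 705, 299.9, 311, 269 and 323 CPM in DSS and 97.9, 362, 345, 476 and 287 CPM in ceAF. Endothelial markers (5 of 5 lower, median −0.31, Pecam1 the most abundant at 4.05 FPKM) summed to 106, 61.3, 60.9, 72.9 and 58.4 CPM in DSS and 26.4, 48.2, 59.0, 107 and 46.6 CPM in ceAF. In these 3 lists 0 markers reached an unadjusted p under 0.05 and the groups overlapped. Single mice moved these medians, the fibroblast one to 0.0096 and the endothelial one to −0.15 without DSS-1, and the smooth muscle one to −0.0052 without DSS-5, so that of the 3 only the fibroblast median changed sign. Without ceAF-1 the 3 medians were −0.14, −0.12 and −0.027 in the same order. Larger differences were also found, with the endothelial median at −0.59 without ceAF-4 and the smooth muscle one at −0.41 without ceAF-2. Of the 10 colon epithelium markers 5 were lower and 5 higher, with a median of 0.03. Their sum was 20180, 25040, 26860, 28150 and 14650 CPM in the DSS mice and 29340, 20510, 24130, 22400 and 17870 CPM in the ceAF mice, lowest in DSS-5. No marker of these 8 lists was at 0 in all mice.

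Within groups, the 10 genes were compared with the summed markers of the 8 lists, in 80 pairs over the 10 mice. An exact two-sided permutation gave 20 pairs at an unadjusted p under 0.05, of which 19 had a positive r, and 4 at an adjusted p under 0.05, while Spearman's coefficient gave 0 at an adjusted p under 0.05. The 4 pairs were Atf3 with T cells (r = 0.743, Spearman 0.903), Egr3 with macrophages (r = 0.891, Spearman 0.758), Nr4a1 with macrophages (r = 0.878, Spearman 0.879) and Batf with macrophages (r = 0.814, Spearman 0.867), each with an adjusted exact permutation p of 0.0431 for r over 10 mice. Their unadjusted exact permutation p-values for r were 0.00146, 0.00194, 0.00201 and 0.00215, in that order. For Spearman's coefficient they were 0.000903, 0.0248, 0.00347 and 0.00354, with adjusted exact permutation p-values of 0.0708, 0.169, 0.0708 and 0.0708. Without the 2 mice farthest from the median of the gene, r was 0.775, 0.717, 0.807 and 0.732.

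The count of 4 did not hold when a single mouse was left out. It was 0 without any one of DSS-1 to DSS-5 or without ceAF-1, 1 without ceAF-2, 2 without ceAF-3 or ceAF-4 and 3 without ceAF-5. Egr1 and Egr2 went rather with T cells (r = 0.735 and 0.806) and colon epithelium (r = 0.750 and 0.848), at an adjusted exact permutation p of 0.123 or more over 10 mice. Without 2 mice the r of Egr1 was 0.375 with T cells and 0.232 with colon epithelium, and that of Egr2 was 0.480 and 0.440, so that all 4 rested in part on those mice. Gem went with the neutrophil sum (r = 0.836, 0.469 without 2 mice), most of it Ly6g in all mice but DSS-1 and DSS-3, and against colon epithelium (r = −0.75). Neither of these passed, with an adjusted exact permutation p of 0.144 and 0.164 over 10 mice. The part of these cell types in the differences of the 10 genes was not tested.

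**Figure D2:**
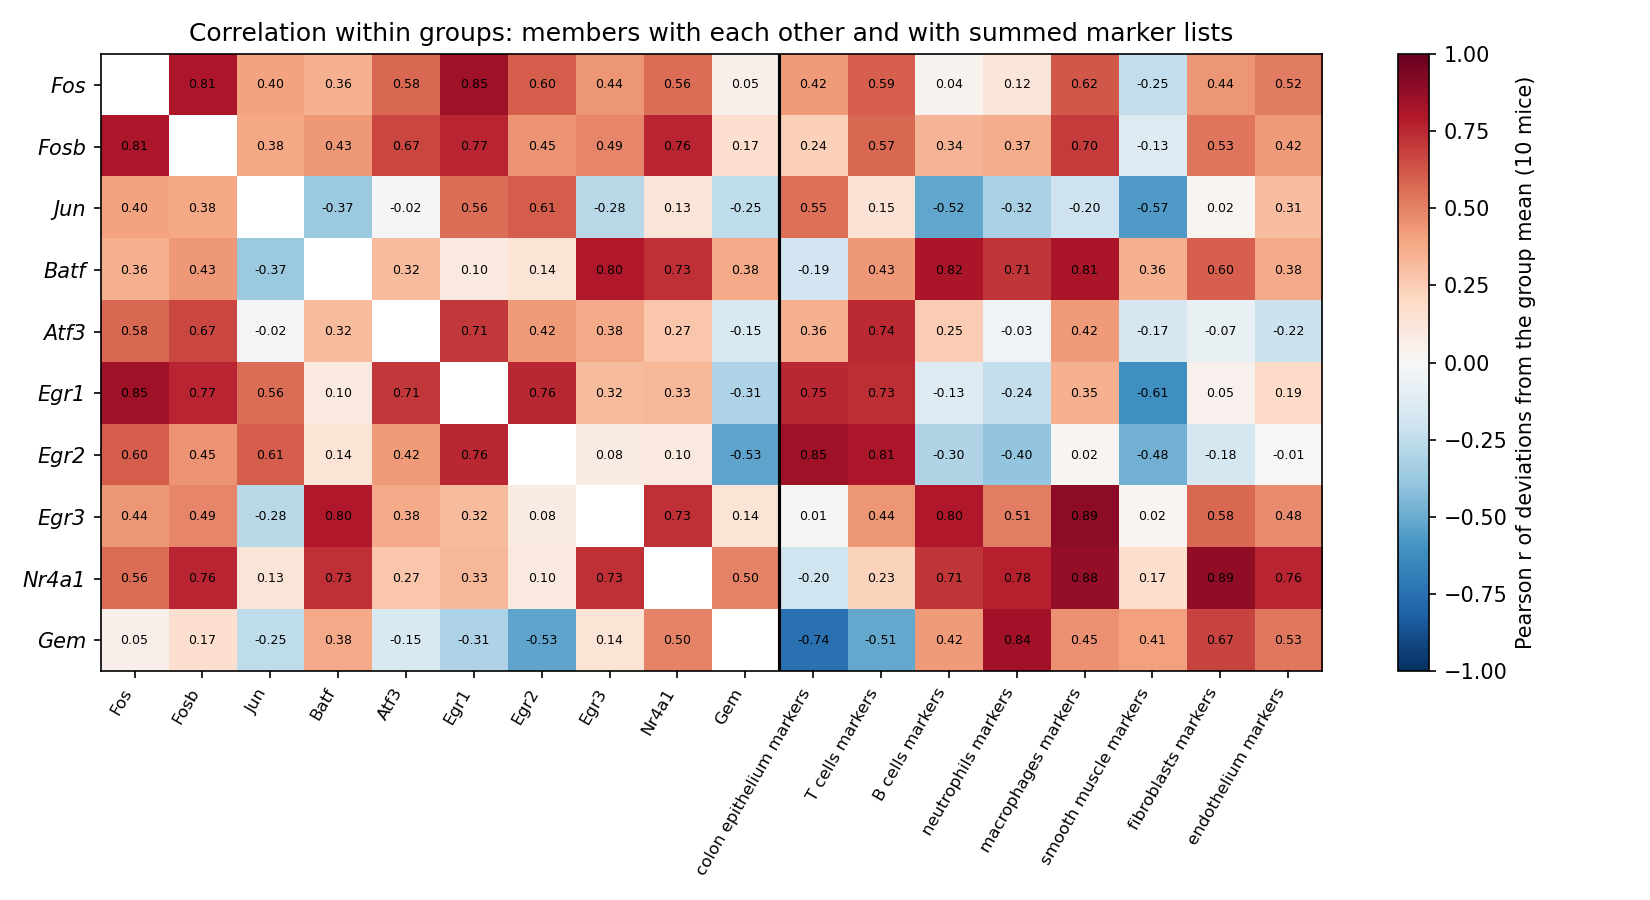
Pearson r over 10 mice between deviations of log2 CPM from the group mean, for each of the 10 genes (vertical axis) with each other gene (left of the black line) and with the summed markers of 8 tissue components (right of it), on a color scale from −1 to 1. Fos, Fosb and Egr1 form a block of positive values, Batf and Egr3 are highest with B cells and macrophages, Nr4a1 is highest with fibroblasts and macrophages, and Gem is negative with colon epithelium.

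The wider response was read from 6 lists with 102 other genes, of which 97 were tested. In ceAF 80 of these 97 (82.5%) were lower and 17 higher, with a median log2 fold change of −0.28 beside 0.0076 for all genes tested. At an unadjusted p under 0.05 in edgeR there were 17 (17.5%), all lower, beside 6.93% of all genes tested in either direction and 3.67% lower. The 12 smallest of these p-values ran from 0.00378 for Gadd45b to 0.0266 for Btg2 before adjustment. None of the 97 passed the adjusted threshold by edgeR or by DESeq2. Without DSS-1 the 17 became 7 and the median −0.15. Without DSS-5 there were again 17, of which 16 were lower. The lists share their cell types and stimuli with the 10 genes, so their counts are not independent of them. They were also chosen with earlier results of these data known, so nothing is concluded from the larger shares beside all genes.

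**Figure D3:**
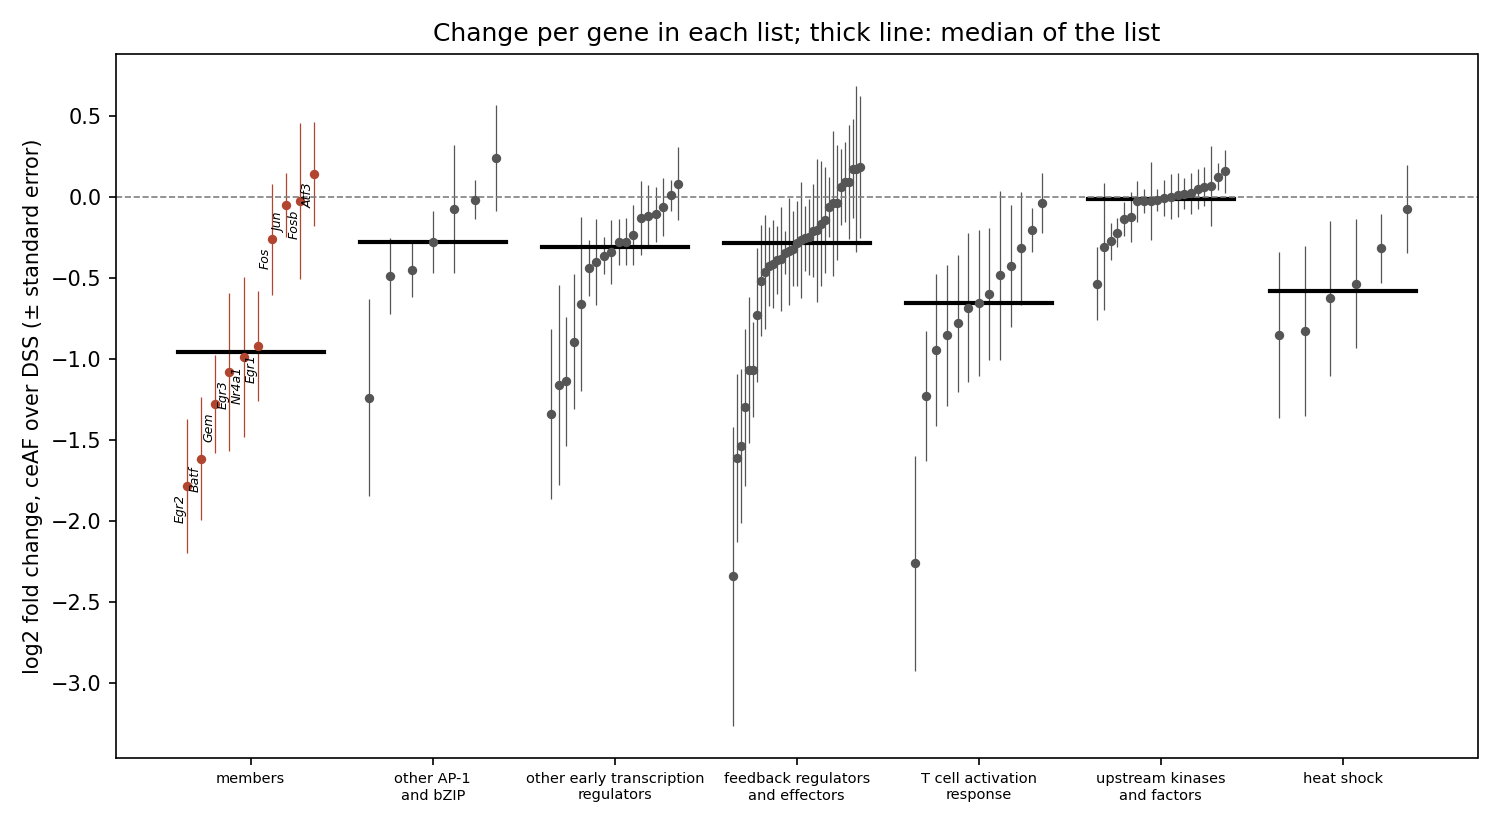
Log2 fold change of ceAF over DSS with its standard error for each gene (points, ordered within a list) in the 10 chosen genes (red) and in 6 lists of other genes (gray), with the median of each list as a thick line and 0 as a dashed line. The medians of the lists lie between −0.65 for the T cell activation response and −0.01 for upstream kinases and factors.

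The other AP-1 and bZIP genes came first, with 6 of 7 tested lower, 1 at an unadjusted p under 0.05 and a median log2 fold change of −0.28. The one was Junb, an AP-1 partner of Fos proteins, at 126 ± 16.9 CPM in DSS and 92.2 ± 22.5 CPM in ceAF (SD, n = 5 each), with a log2 fold change of −0.46 (SE 0.17, adjusted p = 0.656 in edgeR) and all 5 ceAF mice below the DSS median. Jund, the most abundant of the list at 114 FPKM, had a log2 fold change of −0.28 (SE 0.19). It was −0.45 without ceAF-1 and −0.17 without ceAF-5. The median of the list was −0.098 without DSS-1. Fosl1 had too few counts to be tested.

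Of 18 other early transcription regulators tested 16 were lower, 4 at an unadjusted p under 0.05, with a median of −0.31. The 4 were Ier2 (log2 fold change −0.37, SE 0.12), Klf2 (−1.14, SE 0.40), Nr4a3 (−1.34, SE 0.52) and Btg2 (−0.44, SE 0.17), with adjusted edgeR p-values of 0.656, 0.656, 0.681 and 0.681. All ceAF mice were below the DSS median for Ier2, Klf2 and Btg2, and 4 of 5 for Nr4a3. Nr4a3, the paralog of Nr4a1, stood at 9.79 CPM in DSS-1 and 7.92 CPM in DSS-5, while all other mice were at 4.06 CPM or below. Klf2, a factor of quiescent T cells and endothelium, was at 25.7 CPM in DSS-1, and its log2 fold change was −0.60 without that mouse. Klf4, a factor of differentiated epithelium and the most abundant of the list at 291 FPKM, had a log2 fold change of −0.12 (SE 0.19). Over single mice left out it lay between −0.24 without ceAF-2 and −0.027 without ceAF-5. Egr4 was not tested.

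Feedback regulators and effectors, which end or carry on the response, were lower for 27 of 33 tested, 7 of them at an unadjusted p under 0.05, with a median of −0.29, or −0.18 without DSS-1 and −0.15 without ceAF-1. Gadd45b, an activator of stress kinase signaling, had the smallest p of the 97 genes. It was at 39.6, 13.0, 14.1, 16.8 and 22.7 CPM in DSS-1 to DSS-5 and at 7.78, 11.1, 10.1, 9.49 and 12.1 CPM in ceAF-1 to ceAF-5, so the groups did not overlap, as for 0.465% of all genes tested. Its log2 fold change was −1.07 (SE 0.29, adjusted p = 0.656 in edgeR) and −0.72 without DSS-1.

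Socs3, which dampens STAT3 signaling, was at 151, 39.6, 42.7, 48.1 and 194 CPM in the DSS mice and at 28.5, 35.6, 23.6, 51.2 and 24.8 CPM in the ceAF mice. DSS-1 and DSS-5 thus made up the higher DSS mean, and the log2 fold change of −1.54 (SE 0.48, adjusted p = 0.656 in edgeR, 4 of 5 ceAF mice below the DSS median) was −0.36 when DSS-1, DSS-5 and ceAF-1 were left out together, a choice made after seeing the data. Dusp2, a nuclear MAPK phosphatase of activated leukocytes, had a log2 fold change of −1.62 (SE 0.52, adjusted p = 0.656 in edgeR, 5 of 5 ceAF mice below the DSS median). Rrad, an RGK GTPase like Gem, stood at 1.82 ± 0.802 CPM in DSS and 0.723 ± 0.492 CPM in ceAF (SD, n = 5 each), a log2 fold change of −1.30 (SE 0.48, adjusted p = 0.656 in edgeR, 5 of 5 ceAF mice below the DSS median). Zfp36l1, which promotes the decay of AU-rich mRNAs, had a log2 fold change of −0.35 (SE 0.13, adjusted p = 0.656 in edgeR, 5 of 5). Nfkbia, the NF-κB inhibitor and the most abundant of the list at 60.9 FPKM, had −0.42 (SE 0.27), which was −0.12 without DSS-1, the highest mouse at 194 CPM. Rem2 was not tested.

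All 13 tested genes of the T cell activation response were lower, 2 at an unadjusted p under 0.05. With all mice their median of −0.65 was the lowest of the 6 lists. Without DSS-1, 10 of the 13 were lower and the median was −0.24, while that of the heat shock genes was −0.63. Il21, a cytokine of follicular helper and Th17 cells, was at 1.68, 1.999, 2.34, 3.07 and 0.540 CPM in DSS-1 to DSS-5 and at 0.305, 0.911, 0.548, 0.0 and 0.220 CPM in ceAF-1 to ceAF-5. DSS-5 again was the one DSS mouse within the ceAF range, as for Egr2, and the log2 fold change was −2.26 (SE 0.66, adjusted p = 0.656 in edgeR, 5 of 5 ceAF mice below the DSS median). Icos, a T cell costimulatory receptor, was at 12.4, 12.6, 10.2, 13.4 and 3.54 CPM in DSS and 2.82, 7.68, 5.21, 2.21 and 4.29 CPM in ceAF, with a log2 fold change of −1.23 (SE 0.40, adjusted p = 0.656 in edgeR, 5 of 5). Cd44, the adhesion receptor and the most abundant of the list at 9.34 FPKM, had −0.32 (SE 0.35), and 0.16 without DSS-1. Cd40lg and Il2 were not tested.

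The 20 upstream kinases and factors, which are mostly regulated as proteins, split into 12 lower and 8 higher with a median of −0.01, and 3 were lower at an unadjusted p under 0.05. Without ceAF-5 the split was 8 lower and 12 higher, with a median of 0.029. Mapk3 (ERK1), the most abundant at 199 FPKM, had a log2 fold change of −0.12 (SE 0.15). It was −0.26 without ceAF-1 and −0.050 without ceAF-5. Heat shock genes, which respond to tissue handling as well as to stress in the animal, were lower for 6 of 6 with a median of −0.58, 0 of them at an unadjusted p under 0.05. All 6 were highest in DSS-5, which carried this direction, since without it 2 of 6 were lower and the median was 0.077. Hspa1b, for one, chosen after its values were seen, was at 57.7 CPM in DSS-5 and at most 13.98 CPM elsewhere. Hspa8, the most abundant at 249 FPKM, had −0.08 (SE 0.27) and was at 2115 CPM in DSS-5 against at most 1214 CPM elsewhere, so that its log2 fold change was 0.32 without that mouse. The part of tissue handling in the levels of the early genes was not tested.

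Promoter sequence was looked up for all 10 genes. The promoter set used here, from RefSeq on GRCm38.p6, held a start for 7 of the 10 genes, Atf3, Batf, Egr2, Fos, Fosb, Jun and Nr4a1. Egr1, Egr3 and Gem had no entry in this set, so their promoters were not searched. The 250 bases before each transcription start were searched on both strands. The serum response element (CArG box) was found for Egr2 alone of the 7 and in 1.47% of 32851 promoters. Egr2 had 5 starts in the set and was counted if any of its windows matched, while the others had 1 start each. The shares of promoters count single windows, so a gene with more starts has more chances to match. The full cAMP response element TGACGTCA was found for 0 of the 7 (1.55% of promoters), and its shorter form TGACGT, which lies within it, for Atf3, Batf, Egr2 and Fos (6.47%). The AP-1 element TGANTCA was found for 0 of the 7 (6.75%), the EGR element GCGNGGGCG for Fosb and Nr4a1 (4.70%), and the TATA box TATAAA, searched on the forward strand, for Fos (7.59%). A match describes the letters in this window and not the binding of a factor.

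The sequences with matches are shown for Fos, whose deviations were closest to those of another of the 10 genes, for Egr2, which had the largest difference, and for Nr4a1, which carries the EGR element. The Fos window (chr12:85473640-85473889, plus strand, GRCm38.p6) has TGACGT at −66 and TATAAA at −33 from the start in capitals. The Egr2 stretch (chr10:67537793-67537822, plus strand) is 30 bases long and has the CArG box and, on the other strand, TGACGT in capitals. A further Egr2 start has its own CArG box at −72 in the window chr10:67537316-67537565. The Nr4a1 window (chr15:101266596-101266845, plus strand) has the EGR element on the other strand at −60 in capitals.
Fos: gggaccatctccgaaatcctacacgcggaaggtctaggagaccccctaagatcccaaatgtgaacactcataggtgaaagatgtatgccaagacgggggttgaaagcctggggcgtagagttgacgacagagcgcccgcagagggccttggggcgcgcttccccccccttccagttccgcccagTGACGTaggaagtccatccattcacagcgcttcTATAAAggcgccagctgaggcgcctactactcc
Egr2, stretch with both elements: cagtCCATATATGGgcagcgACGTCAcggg
Egr2, further start: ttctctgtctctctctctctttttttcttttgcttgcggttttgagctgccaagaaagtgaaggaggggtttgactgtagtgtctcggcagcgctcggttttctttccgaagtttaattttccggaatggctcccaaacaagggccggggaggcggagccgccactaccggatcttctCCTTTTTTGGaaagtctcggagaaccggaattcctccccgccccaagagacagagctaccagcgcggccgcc
Nr4a1: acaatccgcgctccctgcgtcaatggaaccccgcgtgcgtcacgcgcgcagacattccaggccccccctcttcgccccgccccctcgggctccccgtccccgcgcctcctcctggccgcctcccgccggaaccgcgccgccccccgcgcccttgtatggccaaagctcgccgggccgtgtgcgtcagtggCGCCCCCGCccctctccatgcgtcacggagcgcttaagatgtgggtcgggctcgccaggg

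The 10 genes have a median span of 7035 bases beside 19755 for all genes tested, although Atf3, Batf and Nr4a1 are longer than that, and a median exonic length of 3294 beside 3987 bases.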

How the data were processed

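Colon RNA of 5 DSS and 5 ceAF mice was sequenced by a company for the authors from poly(A) RNA, and the labels give each mouse's group and number. The submitters' processing notes name cutadapt 1.9.1 and HISAT2 2.2.1, while the counting program, its use of strand and the genome build are not given in the sources used here, so gene positions are as deposited. The authors deposited whole-number counts per gene and mouse without normalization. The FPKM beside each count, as the authors deposited it, is the count scaled by exonic length and library total.

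Counts were filtered by filterByExpr in edgeR 4.0.16 (R 4.3.3) with its minimum count of 10, scaled by TMM and compared by the two-sided quasi-likelihood test, and p-values of all 16545 remaining genes were adjusted together by Benjamini-Hochberg. A prior count of 1 was used for log2 CPM. DESeq2 1.42.0 was an alternative, as were RLE scaling, other filters, a replicate block and leaving out each mouse. Correlations and figures were made in Python 3.11.15 with scipy 1.17.1 and matplotlib 3.10.9. Both kinds of test were tried on simulated data. The members and lists were chosen with earlier results of these data known. Genes named outside the 10 were, in each list, the most abundant by FPKM, the 12 with the smallest unadjusted p under 0.05, the most abundant marker of each cell type, and the 5 genes most correlated with Fos and with Batf. Of these, 1 gene is not reported here. Junos was named for its overlap with Jun, and Hspa1b was named after its values were seen. No pair of libraries of a group agreed within sampling noise.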

Additional observations from a re-analysis of the deposited data

Results flagged for a closer look

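In 40 comparisons of one mouse with the rest of its group of 5, over the 10 genes, the 8 marker lists, the total count and the mitochondrial share, 8 had a mouse that lay far from the others by Dixon's ratio (the gap to the nearest mouse over the whole range, taken on the log2 scale except for the mitochondrial share, with a 95% critical value of 0.71), where chance gives about 2. Of the 10 genes, Nr4a1 was far above the other DSS mice in DSS-1 (ratio 0.782, 40.2 CPM) and Gem was far below the other ceAF mice in ceAF-1 (ratio 0.825, 2.75 CPM).

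Among marker sums, T cell markers were low in DSS-5 (ratio 0.842, 45.6 CPM), B cell markers were high in DSS-1 (ratio 0.864, 220.3 CPM), fibroblast markers were high in DSS-1 (ratio 0.812, 705 CPM) and neutrophil markers were low in ceAF-1 (ratio 0.723, 21.0 CPM). Of the library measures, the total count was high in DSS-2 (ratio 0.899, 19901549 counts) and the mitochondrial share was high in DSS-4 (ratio 0.737, 6.54%), though ceAF-1, ceAF-4 and ceAF-5 had higher shares (9.66%, 7.24% and 9.74%) that were not apart within their own, wider group. DSS-1 was thus far from its group in 3 of these 8 and ceAF-1 in 2. The part of these differences in the levels of the 10 genes was not tested.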

How the results depend on the processing

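The count of genes called by edgeR at an adjusted p under 0.05, 0 in ceAF against DSS, was 31 with DESeq2, ranged from 0 to 3 when each mouse was left out in turn and was 1 when DSS-1, DSS-5 and ceAF-1 were left out together, a choice made after seeing the data. The 1146 genes at an unadjusted p under 0.05 became 1733 without the low count filter and 2575 without those 3 mice, and lay between 712 (DSS-1 left out) and 1872 (ceAF-1 left out) over single mice. The 17 genes of the other lists at an unadjusted p under 0.05 became 11 without the 3 mice, 9 of them lower. Over single mice they lay between 7 (DSS-1 left out) and 22 (DSS-2 left out). The median log2 fold change of these lists stayed below 0 in all 16 alternatives, between −0.32 and −0.11, and without the 3 mice that of the feedback regulators and effectors was 0.0021.

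With the replicate number as a replicate block, the 1146 became 694, the 17 became 10 and the 4 pairs of a gene and a marker list became 0. Deviations of mice with the same number had correlations of −0.249, −0.136, −0.00428, −0.159 and 0.286 for numbers 1 to 5. The labels do not say what the number stands for, and these correlations cannot decide whether it pairs the mice. The 4 pairs ranged from 0 to 3 when each mouse was left out, and the 0 pairs among the 10 genes from 0 to 2. The cause of these shifts was not tested.

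The log2 fold changes of Fos, Batf, Egr1, Egr2, Egr3, Nr4a1 and Gem were below 0 in every alternative run. Egr2, like Il21, has no value under the filter of at least 1 CPM in 5 mice, which it did not pass. Leaving out each mouse moved Egr2 between −1.99 and −1.57, Batf between −1.76 and −1.33, Gem between −1.43 and −1.04 and Nr4a1 between −1.27 and −0.39. Without the 3 mice Gem was at −0.73 and Nr4a1 at −0.25. Fosb, Jun and Atf3 took either sign, with Fosb between −0.49 and 0.19, Jun between −0.17 and 0.10 and Atf3 between −0.16 and 0.32 over single mice left out.

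Depth limits the least abundant genes, Egr2 having 5 to 54 counts per mouse, Batf 7 to 98 and Egr3 6 to 96. With 5 mice a group at one time of collection, transient transcripts are seen only as they stood then. Cell types were not separated, so which cells held each RNA is not known, and levels before injury or after ceAF without DSS were not analysed here.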
